A study of Homo sapiens with 3 samples.

Results

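The 38 HOX genes considered here belong to the HOXA, HOXB, HOXC and HOXD clusters, which lie on chromosomes 7, 17, 12 and 2. They were chosen by gene symbol, with earlier results of these data known. Of the 38, 37 had a named probe set, 1 each, among the 17185 genes named on the array, and HOXA9 was not analysed here. All arrays came from MNNG/HOS, an established human osteosarcoma line (a bone tumour line), grown in serum-free medium. After a first round of spontaneous spheres had been taken away, the adherent cells left behind were cultured further in 3 ways. The untreated culture received no factor and was kept for 5 days. The day 3 culture was given TGF-beta1, a secreted growth factor, for 3 days at a dose of 4 ng/mL, and it is not stated whether floating or attached cells were taken. The day 5 spheres are the floating sarcospheres alone, collected after 5 days at the same dose. In time on TGF-beta1 these arrays form a series of 0, 3 and 5 days, and values of all arrays are given in that order. Each group is 1 sample on 1 single-colour array of total RNA, so there is no spread between samples, no test and no p-value, and a gene is called higher or lower by a fixed size, at least 2-fold.

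HOX genes encode transcription factors with a DNA-binding homeodomain. In each cluster they are lined up in the order in which they act along the body axis, and genes at the same place in different clusters are paralogs that share a number, from group 1 at the head end to group 13 at the tail end and the tips of the limbs. Mesenchymal cells keep a HOX pattern that reflects the body site they came from, and limb skeleton is patterned mainly by the posterior genes of HOXA and HOXD, with group 10 known for the upper segment, group 11 for the middle segment and group 13 for hands and feet. The proteins bind DNA with cofactors of the TALE class (PBX, MEIS and PKNOX), and Polycomb and Trithorax chromatin proteins keep the clusters silent or active. The roles given below for single HOX genes come mainly from mouse mutants.

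The 3 arrays had median intensities between 437 and 455, and Pearson's r of log2 intensity between pairs was 0.977 to 0.979 across all 45033 probe sets, which are not independent replicates. The only spread that can be measured is between probe sets of the same gene. Among the 1349 genes with several probe sets, their log2 differences in a comparison had a median SD of 0.15 or 0.16, and 1 gene in 10 had an SD of at least 0.56 to 0.61. The HOX members have 1 probe set each, so no such value exists for them, and paralogs with like sequences can share signal. An intensity depends on its probes, so levels of different genes are not set against each other. In whole cultures fewer cells that express a gene and less RNA per cell cannot be told apart. The 8 markers of bone and mesenchyme summed to 47402 untreated, 68505 at day 3 and 58355 in spheres. Among them the collagen genes had the largest fold differences from untreated cells. COL1A1 had 1755 untreated, 10781 at day 3 and 7408 in spheres, 6.14-fold higher at day 3 and 4.22-fold higher in spheres than untreated. COL1A2 was 5.31-fold and 6.18-fold higher in that order, but low, with 36.2 untreated, 193 at day 3 and 224 in spheres. With 64 added to each intensity its log2 differences of 2.41 and 2.63 became 1.36 and 1.52. VIM was at 15058 in untreated cells, 16930.4 at day 3 and 15362 in spheres, and RUNX2, the bone transcription factor, at 4000.2, 4818 and 3246 in the same order. Of 7 blood cell markers and 6 endothelial markers, each list had 4 or 5 per array within the lowest quartile of genes (intensity below 63.4), and the endothelial list's summed intensity was 286 untreated, 275 at day 3 and 242 in spheres. The epithelial list summed to 50422.5, 44768 and 34170 in that order, mostly through the keratins KRT8 and KRT18. EPCAM had 1509 untreated, 1435 at day 3 and 1320 in spheres, while the cadherin CDH1 was between 8.59 and 10.0 on all arrays. Of the 7 epithelial genes, 4 untreated, 3 at day 3 and 3 in spheres were in that lowest quartile. The blood cell sum was 754 untreated, 460.0 at day 3 and 462 in spheres, led by CD14 with 509 untreated. The part of these differences in the HOX results was not tested.

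At day 3 of TGF-beta1 all 37 measured HOX genes were within 2-fold of untreated cells, whereas the day 5 spheres had lower signal for 8 genes of HOXB and HOXC and higher signal for HOXD8. Against untreated cells 8 of 37 members (21.6%) were at least 2-fold lower in spheres, where 5.00% of all 17185 named genes were, and 1 member was at least 2-fold higher, where 4.90% of all genes were. The 8 were HOXB3, HOXB5, HOXB6 and HOXB8 of the HOXB cluster and HOXC6, HOXC10, HOXC11 and HOXC13 of the HOXC cluster. The members' median log2 difference was -0.33, beside 0.01 for all named genes, and 27 of 37 were below 0, where 49.4% of all genes were. Of the 16 members whose mean level reached that of the median gene, 4 were at least 2-fold lower, where 3.47% of the 8593 genes at that level were, and 0 were higher, where 2.77% were. No member of HOXA, with 9 measured, was past 2-fold in any comparison. In each direction of each comparison 4.72% to 5.78% of all named genes were. For 9 members a count of 0 in a single direction of a single comparison is close to these shares.

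**Figure D1:**
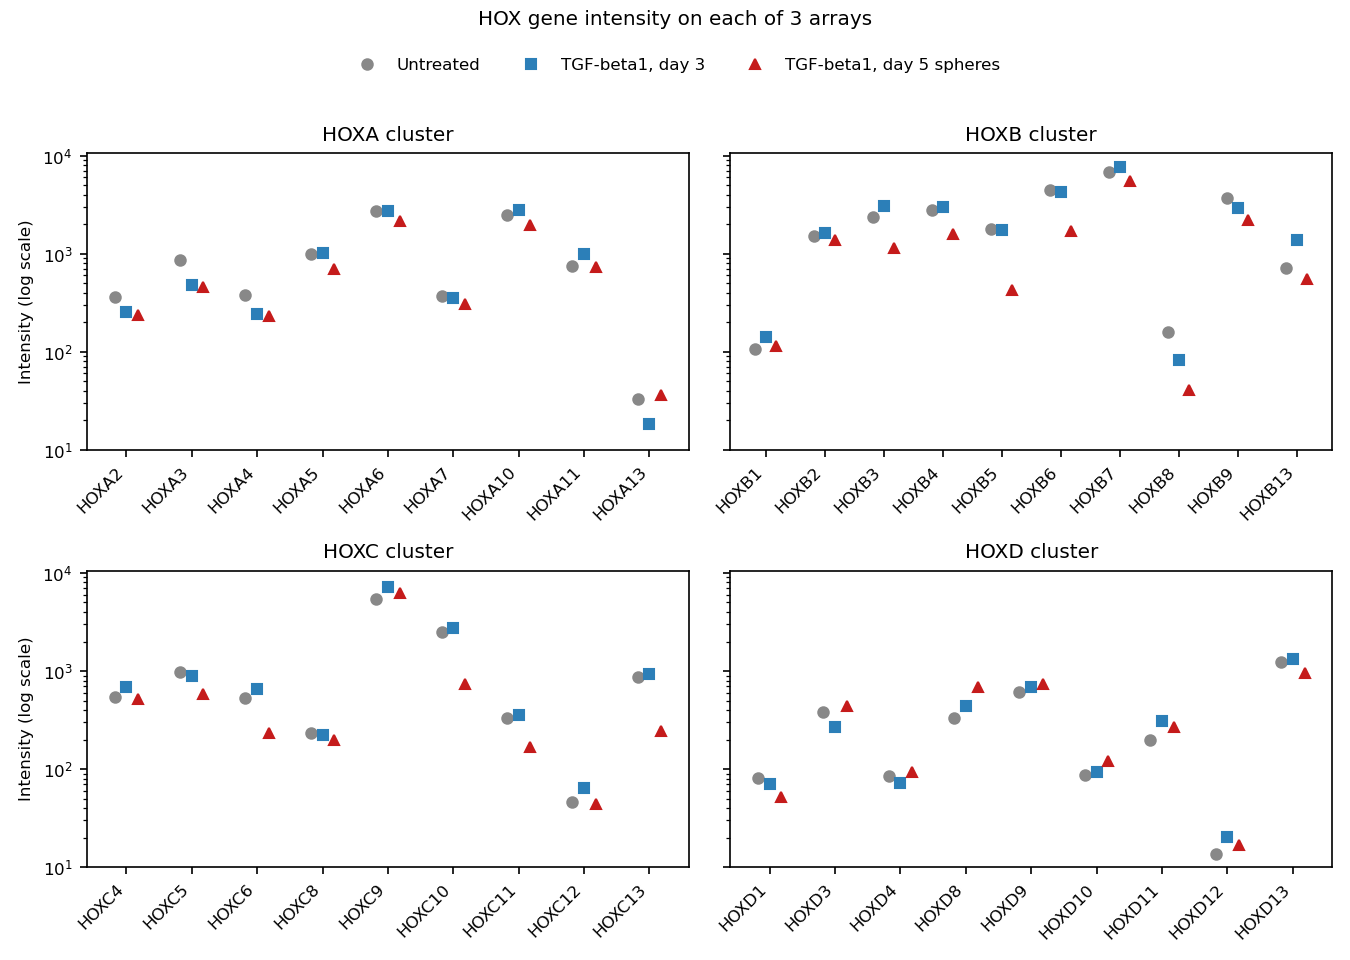
Deposited intensity (log axis) of each HOX gene on the 3 arrays, 1 panel per cluster, with genes ordered by paralog group. Circles are untreated cells, squares day 3 of TGF-beta1 and triangles day 5 spheres, 1 array each. The triangles of HOXB5 (426), HOXC10 (745) and HOXC13 (245) lie well under both other points, while HOXD8 is highest in spheres (694).

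The HOXB cluster held the member with the largest difference. HOXB5, which in mice acts at the level of the shoulder, gave 1775 in untreated cells, 1726 at day 3 and 426 in spheres. Spheres were thus 4.16-fold lower than untreated cells and 4.05-fold lower than day 3, and day 3 differed from untreated cells by -0.04 in log2. HOXB6, a neighbour with a role in thoracic patterning, had 4429.8 untreated, 4224 at day 3 and 1685 in spheres, 2.63-fold lower in spheres than untreated. HOXB3, a gene of hindbrain and neck patterning, had 2357 untreated, 3089.9 at day 3 and 1143 in spheres. It was 2.06-fold lower in spheres than untreated, just past the limit, and 2.70-fold lower than day 3. HOXB4, known for promoting growth of blood stem cells, had 2797, 2966 and 1569 in the order untreated, day 3 and spheres, and at 1.78-fold lower than untreated it lay just short of the limit. HOXB3, HOXB4, HOXB5 and HOXB6 lie next to each other in the cluster. In all of them the spheres were lowest, as they were in 9 of the 10 HOXB members. HOXB3 and HOXB4 overlap in the annotation, and how much signal they share was not tested.

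The members around this run differed less, apart from HOXB8. HOXB7, a gene often active in tumours, had 6791 untreated, 7692 at day 3 and 5482 in spheres, a log2 difference of -0.31 between spheres and untreated cells. HOXB2, which patterns the hindbrain, had 1517, 1612 and 1366 in the same order and differed by -0.15. HOXB9, a thoracic gene, had 3695, 2906 and 2189.7, and was 1.69-fold lower in spheres than untreated. HOXB8 had 159 untreated, 82.3 at day 3 and 40.9 in spheres. It was 3.88-fold lower in spheres than untreated, but its sphere value lay in that lowest quartile, where the share of background is unknown. An offset of 64 on all intensities gave HOXB8 a log2 difference of -1.09 instead of -1.96.

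At the ends of the HOXB cluster lie HOXB1 and HOXB13. HOXB1, known for specifying a hindbrain segment, stayed low, at 105 untreated, 139.9 at day 3 and 115 in spheres. HOXB13, which is best known in the prostate, was highest at day 3, with 716 untreated, 1369.8 at day 3 and 554 in spheres. Its day 3 value was 1.91-fold higher than untreated, the largest positive difference of any member at day 3 and still under 2-fold, and spheres were 2.47-fold lower than day 3. Over the 10 HOXB members the median log2 difference between spheres and untreated cells was -0.79, with 9 below 0.

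2 microRNA genes lie inside this cluster and 1 lies in HOXC, and they are shown for their place among the members. The gene of miR-10a lies between HOXB4 and HOXB5 and inside the span annotated for HOXB3, miR-196a-1 lies between HOXB9 and HOXB13, and miR-196a-2 lies between HOXC10 and HOXC9. In mice miR-196a is known to direct cleavage of Hoxb8 mRNA. No mature microRNA was measured here. The sequences are those of RefSeq (GRCh38.p14), 5′ to 3′, with the seed (bases 2 to 8) in capitals.
miR-10a-5p, chr17:48579904-48579926, minus strand: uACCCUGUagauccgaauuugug
miR-196a-5p from miR-196a-1, chr17:48632532-48632553, minus strand: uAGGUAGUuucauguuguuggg
miR-196a-5p from miR-196a-2, chr12:53991762-53991783, plus strand: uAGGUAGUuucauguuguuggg
Both miR-196a genes give the same mature sequence, so they share a seed with each other and not with miR-10a.

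In HOXC the difference lay at the posterior end and at HOXC6. HOXC10, a gene of hindlimb and lumbar identity, had 2529 in untreated cells, 2730.0 at day 3 and 745 in spheres. It was 3.40-fold lower in spheres than untreated and 3.67-fold lower than day 3. HOXC13, required for hair and nails, had 866 untreated, 928 at day 3 and 245 in spheres, 3.54-fold lower than untreated. HOXC11, another posterior gene, had 336, 359 and 167 in the same order. At 2.01-fold lower than untreated it was the member nearest the limit, and it was under 2-fold after centring each array on its median. HOXC12 was low on each array, at 46.5 untreated, 64.9 at day 3 and 44.6 in spheres, and the share of background at that level is unknown.

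HOXC9, which lies next to HOXC10, did not follow it. HOXC9, a thoracic gene, had 5443 untreated, 7158 at day 3 and 6173 in spheres, so that spheres differed from untreated cells by 0.18 in log2. HOXC8 had 232, 221 and 199 in that order, a log2 difference of -0.22.

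HOXC4, HOXC5 and HOXC6 overlap in the annotation, and the table of gene starts gives HOXC4 and HOXC5 the same promoter. Their signals differed all the same. HOXC4 had 539 untreated, 681 at day 3 and 519.7 in spheres, a log2 difference of -0.05 between spheres and untreated cells. HOXC5 had 987, 896 and 589 in the same order, a difference of -0.74. HOXC6, known in patterning at the level of the arm, had 535 untreated, 649.8 at day 3 and 232 in spheres, 2.31-fold lower in spheres than untreated. How much of each signal comes from shared exons was not tested. The promoter shared by HOXC4 and HOXC5 is printed to show that start (RefSeq, GRCh38.p14, 5′ to 3′ on the plus strand, 250 bases before to 50 after the start, with CCAAT in capitals on either strand, read there as ATTGG).
HOXC4 and HOXC5, chr12:54016638-54016937: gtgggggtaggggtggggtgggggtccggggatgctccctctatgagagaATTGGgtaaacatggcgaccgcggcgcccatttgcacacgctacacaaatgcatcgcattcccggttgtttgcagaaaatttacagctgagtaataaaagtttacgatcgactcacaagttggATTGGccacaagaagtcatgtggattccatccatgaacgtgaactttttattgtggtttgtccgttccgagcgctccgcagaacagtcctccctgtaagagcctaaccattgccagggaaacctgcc

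The HOXD cluster, central to limb and digit patterning, had no member 2-fold lower in spheres than untreated, where 5.00% of all named genes were. With 9 members a count of 0 is close to that share. Of its 9 members 7 were above untreated cells in spheres, as were 8685 of all 17185 named genes. The median log2 difference of the 9 was 0.27. HOXD8 had 333 untreated, 438 at day 3 and 694 in spheres, 2.08-fold higher in spheres than untreated, and the same offset of 64 gave HOXD8 a log2 difference of 0.93, under the limit. HOXD9, next to it, had 613, 689.6 and 737 in the same order, a difference of 0.27. HOXD10 had 86.5, 94.4 and 121, and HOXD11, a gene of the middle limb segment, had 196, 310.4 and 269. HOXD11 differed by 0.46 between spheres and untreated cells and by 0.66 between day 3 and untreated cells. HOXD13, the gene of digit formation, went the other way, with 1241 untreated, 1320.2 at day 3 and 956 in spheres, a difference of -0.38.

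The remaining HOXD genes, HOXD1, HOXD3, HOXD4 and HOXD12, stayed within 2-fold in every comparison. HOXD3 differed most, 1.61-fold higher in spheres than at day 3. HOXD3 had 386 untreated, 270.1 at day 3 and 436 in spheres, and HOXD4 had 85.8, 73.0 and 94.3 in that order. HOXD1 had 81.9, 71.2 and 51.7, and HOXD12 stayed between 13.7 and 20.1. Only HOXD13 of the 9 had a mean over the arrays at or above that of the median gene (an intensity of 679), so 8 of the 9 HOXD differences come from probe sets below that level. The HOXD8 promoter is shown because HOXD8 alone was past 2-fold upwards (RefSeq, GRCh38.p14, plus strand, 5′ to 3′, with none of the 5 motifs searched and therefore no capitals).
HOXD8, chr2:176129455-176129754: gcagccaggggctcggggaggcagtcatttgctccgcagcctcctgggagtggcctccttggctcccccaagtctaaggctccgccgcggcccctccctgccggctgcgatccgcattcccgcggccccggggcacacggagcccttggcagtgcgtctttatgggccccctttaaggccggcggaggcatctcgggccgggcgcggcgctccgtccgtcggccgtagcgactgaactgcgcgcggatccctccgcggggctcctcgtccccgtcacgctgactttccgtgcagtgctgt

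The HOXA cluster differed by smaller steps, and its anterior end differed in another way than HOXB and HOXC. HOXA3, a gene of the pharyngeal arches and thymus, had 856 in untreated cells, 483 at day 3 and 461 in spheres. HOXA2, which patterns the second pharyngeal arch, had 359 untreated, 253 at day 3 and 239 in spheres. HOXA4, which overlaps HOXA3 in the annotation, had 379, 241 and 230.0 in the same order. In these 3 neighbours both TGF-beta1 arrays lay below the untreated array, with log2 differences of -0.51 to -0.82 at day 3 and -0.59 to -0.89 in spheres, and the 2 TGF-beta1 arrays differed from each other by only -0.07 to -0.08 in log2. Among all named genes 33.3% were below untreated cells on both TGF-beta1 arrays, as were 11 of the 37 members, a similar share; these 3 were picked out after their values were seen. The 3 comparisons are made from 3 arrays, so these 2 differences share the untreated array.

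HOXA5, HOXA6, HOXA7, HOXA10 and HOXA11 were within 1.5-fold of untreated cells at day 3, and HOXA13 was not. HOXA5, known in lung and skeletal patterning, had 995 untreated, 1026 at day 3 and 693 in spheres, 1.43-fold lower in spheres than untreated. HOXA6 had 2711, 2717 and 2161 in the same order, and HOXA7 had 369.8, 355 and 308. HOXA10, which patterns the upper limb segment and the uterus, had 2466, 2755 and 1973, a difference of -0.32 in spheres. HOXA11, a gene of the middle limb segment, had 740.2, 992 and 733, so that spheres and untreated cells differed by -0.01. HOXA13, needed for digits, was in that lowest quartile on all arrays, with 32.8, 18.3 and 35.8. Its log2 differences of -0.84 between day 3 and untreated cells and 0.97 between spheres and day 3 lie near the bottom of the scale.

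Promoter sequence was at hand for 19 of the 37 members. HOXA2 and HOXA4 are printed as 2 of the 3 neighbours that were lower on both TGF-beta1 arrays (RefSeq, GRCh38.p14, minus strand, 5′ to 3′). Capitals mark CCAAT on either strand and, in HOXA2, also TGATNNAT, the site of PBX and HOX proteins bound side by side, found there on the opposite strand.
HOXA2, chr7:27102634-27102933: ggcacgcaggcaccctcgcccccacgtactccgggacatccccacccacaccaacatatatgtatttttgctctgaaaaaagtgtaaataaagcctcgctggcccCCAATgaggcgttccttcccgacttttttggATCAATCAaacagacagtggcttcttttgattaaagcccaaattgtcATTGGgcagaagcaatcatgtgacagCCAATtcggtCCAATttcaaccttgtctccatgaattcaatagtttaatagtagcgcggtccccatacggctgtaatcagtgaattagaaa
HOXA4, chr7:27130708-27131007: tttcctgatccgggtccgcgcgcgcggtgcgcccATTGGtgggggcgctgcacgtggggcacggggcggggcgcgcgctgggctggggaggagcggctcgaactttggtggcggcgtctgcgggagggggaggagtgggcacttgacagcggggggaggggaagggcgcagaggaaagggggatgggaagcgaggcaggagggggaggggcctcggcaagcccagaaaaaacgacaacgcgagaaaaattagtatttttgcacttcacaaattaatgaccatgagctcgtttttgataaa
TGATNNAT was found in 7.4% of all 35116 promoters of this length, and in HOXA2, HOXB1 and HOXD11 among the members. CCAAT was found in 16 of 25 member promoters (a gene can have several starts) and in 34.6% of all promoters. TAATTA, the core site of many homeodomains, was found in HOXD3 and HOXD11 and in 4.84% of all promoters, and TATAAA in HOXA3, HOXA10 and HOXD13 and in 11.5%. AGGTCA, the half-site of retinoic acid receptors, was found in 0 of the 25 and in 13.8% of all promoters. All motifs were searched on both strands, and matches of different motifs may overlap. A match describes these letters and no more.

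Read by paralog group, some members with the same number lay on opposite sides of untreated cells in spheres. In groups 2, 5, 6 and 7 all measured members were lower. These are the groups without a HOXD member, so paralog group and cluster cannot be told apart here. In group 8 the spheres differed from untreated cells by -1.96 for HOXB8, -0.22 for HOXC8 and 1.06 for HOXD8. In group 10 the differences were -0.32 for HOXA10, -1.76 for HOXC10 and 0.48 for HOXD10. In group 13 they ranged from -1.82 for HOXC13 to 0.12 for HOXA13. In group 5 the differences were -0.52 for HOXA5, -2.06 for HOXB5 and -0.74 for HOXC5. In group 6 they were -0.33 for HOXA6, -1.39 for HOXB6 and -1.21 for HOXC6. Group 7 was the most even, with -0.26 for HOXA7 and -0.31 for HOXB7. By region, groups 1 to 3 had a median of -0.59 over 7 members, groups 4 to 8 of -0.52 over 15 and groups 9 to 13 of -0.06 over 15. This order did not hold elsewhere. The 7 members of groups 9 to 13 at the level of the median gene or above had a median of -0.37. Against day 3 the medians were -0.24, -0.49 and -0.44. HOXD members are also spread unevenly over these regions.

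**Figure D2:**
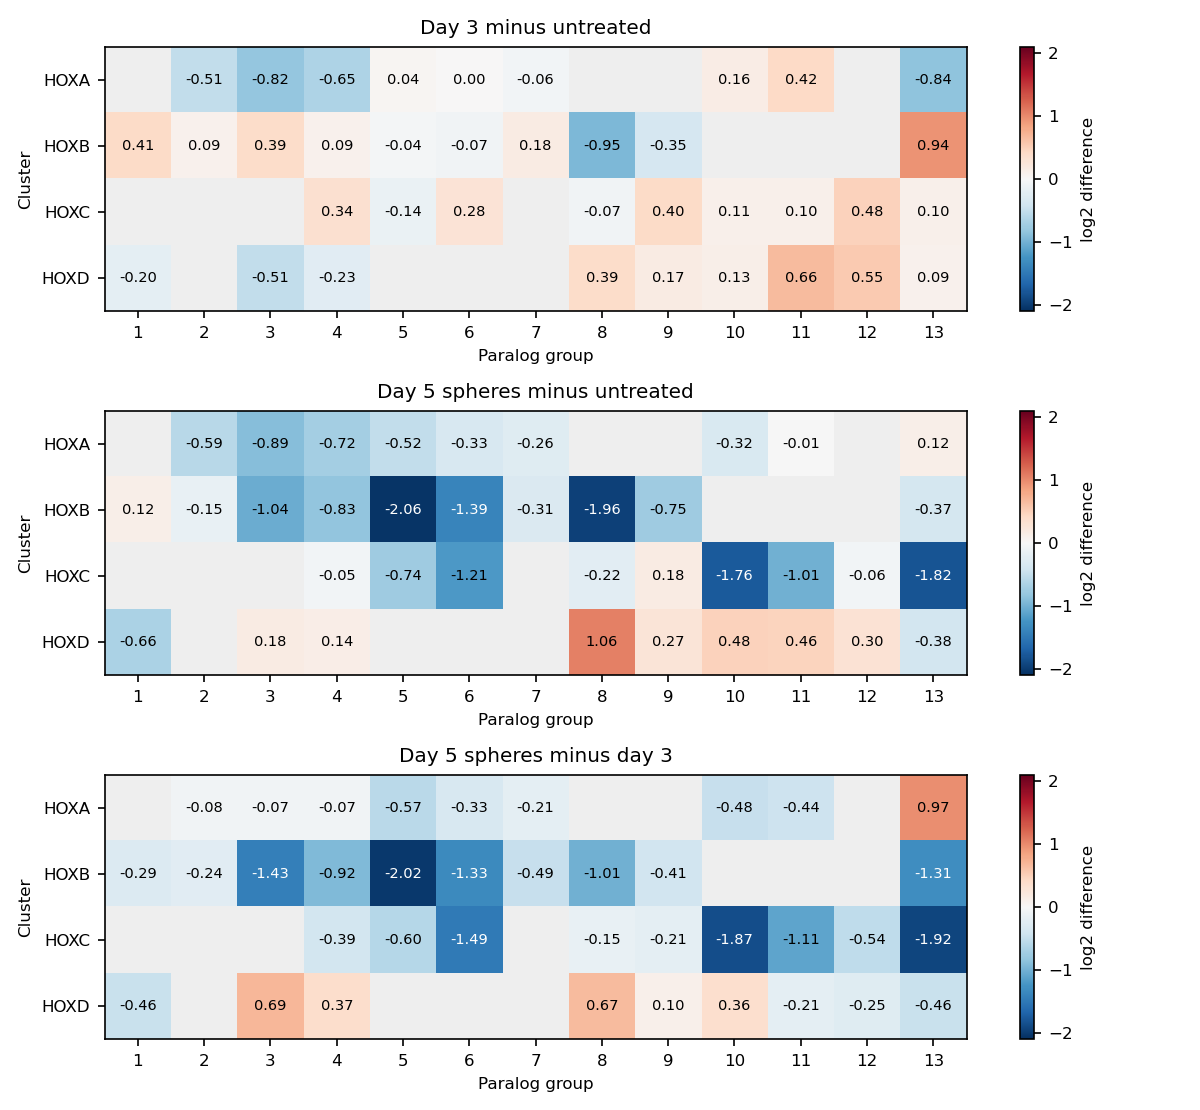
Log2 difference of each HOX gene, with clusters as rows and paralog groups as columns, for day 3 minus untreated, day 5 spheres minus untreated and day 5 spheres minus day 3. Blue is lower and red is higher in the first named array, and grey squares hold no gene analysed here. Spheres are lower than untreated cells along HOXB3 to HOXB6 (-0.83 to -2.06) and at HOXC10, HOXC11 and HOXC13 (-1.01 to -1.82), and 7 of 9 HOXD squares are above 0.

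The comparison of day 3 with untreated cells describes the TGF-beta1 culture at a time before the day 5 spheres were collected. Of 37 members 0 were at least 2-fold higher, where 5.77% of all named genes were, and 0 were at least 2-fold lower, where 5.26% of all genes were. The members' median log2 difference was 0.09, beside -0.01 for all genes, and 14 of 37 were below 0, where 50.5% of all genes were. In addition, 31 of 37 members (83.8%) were within 1.5-fold of untreated cells, where 71.1% of all genes were. Outside that range were HOXB13 and HOXD11 on the higher side and HOXB8, HOXA13, HOXA3 and HOXA4 on the lower side. The 9 members of HOXC were all within 1.5-fold. Treatment and days of culture differ together between these arrays.

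The comparison of spheres with day 3 asks what separates the floating fraction from the earlier culture. Of 37 members 9 (24.3%) were at least 2-fold lower, where 4.72% of all named genes were, and 0 were at least 2-fold higher, where 5.78% were. The 9 were the 8 named above and HOXB13. The median log2 difference was -0.41, beside -0.04 for all genes, and 31 of 37 were below 0, where 53.0% of all genes were. Of the 16 members at the level of the median gene or above, 5 were at least 2-fold lower, where 3.90% of genes at that level were. HOXB had a median of -0.96 and HOXC of -0.60, with all 10 and all 9 members below 0, against 0.10 in HOXD. Since both of these comparisons use the sphere array, they are not separate evidence. In 27 of 37 members (73.0%) the spheres were the lowest of the 3 arrays, as they were in 33.2% of all genes. By cluster this held for 8 of 9 HOXA, 9 of 10 HOXB, 8 of 9 HOXC and 2 of 9 HOXD members. The 8 members at least 2-fold below both other arrays compare with 1.81% of all genes. Treatment time, and possibly the fraction of cells, differ between spheres and day 3, and treatment and fraction differ between spheres and untreated cells.

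**Figure D3:**
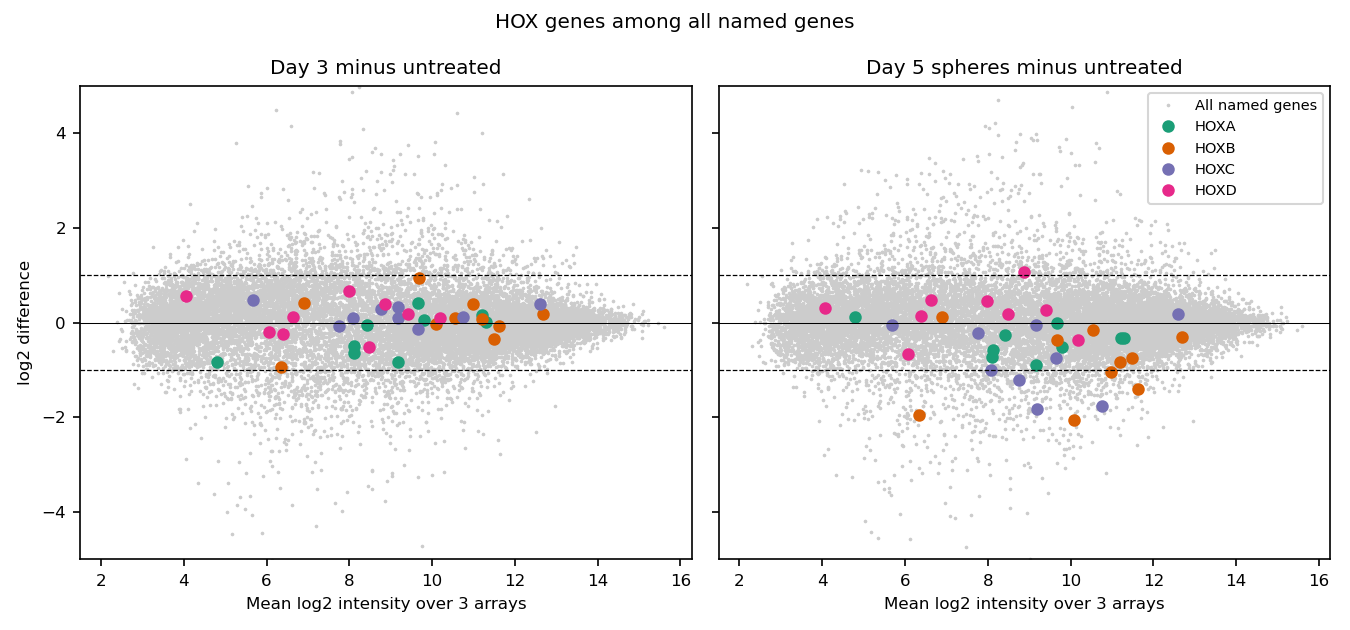
Log2 difference (vertical) against mean log2 intensity over the 3 arrays (horizontal) for all 17185 named genes in grey and the HOX genes in colour by cluster, for day 3 minus untreated and day 5 spheres minus untreated. Dashed lines mark 2-fold, and 9 genes lie outside the vertical range. At day 3 all HOX points lie between the dashed lines, and in spheres 8 points of HOXB and HOXC lie under the lower one.

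Genes flanking the clusters were examined to see whether whole chromosome stretches moved. Among the 6 nearest named coding genes on each side, the median log2 difference between spheres and untreated cells was -0.23 around HOXB (12 genes), beside -0.79 inside the cluster. Around HOXC it was 0.00 (11 genes), beside -0.74 inside, around HOXA 0.23 (12 genes), beside -0.33 inside, and around HOXD 0.17 (11 genes), beside 0.27 inside. Against day 3 the medians of spheres were 0.15 around HOXA, -0.23 around HOXB, -0.43 around HOXC and 0.17 around HOXD, beside -0.21, -0.96, -0.60 and 0.10 inside. SKAP1, the first coding gene beyond HOXB1, which encodes a T cell adaptor protein, had 947 untreated, 150.5 at day 3 and 74.1 in spheres. It was 12.8-fold lower in spheres than untreated and 6.29-fold lower at day 3. Of the 10 HOXB genes 4 were below untreated cells at day 3, HOXB8 the most, by a log2 difference of -0.95. No HOXB gene was past 2-fold at day 3. PRAC1, at the other end near HOXB13, was in the lowest quartile on every array. LNPK, beyond HOXD13, had 1521 untreated, 852 at day 3 and 662 in spheres, 2.30-fold lower in spheres than untreated. On the other side of HOXD, IFT70B was 2.99-fold and IFT70A 2.20-fold higher, and NPFF, near HOXC, was 4.14-fold lower in spheres than untreated; these 3 were named after their values were seen. EVX1, beyond HOXA13, had 176.5, 232 and 179. SNX10, on the other side of HOXA, was 2.11-fold higher in spheres than at day 3. The antisense RNAs HOTAIR and HOTTIP were not analysed here.

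The TALE cofactors stayed within 2-fold of untreated cells in spheres. Of 10 measured, 0 were past 2-fold in spheres against untreated cells, where 4.90% of all genes were higher and 5.00% lower. For 10 genes a count of 0 is close to these shares. The median of the 10 was 0.17. PBX4, a HOX partner, was 2.01-fold higher in spheres than at day 3. MEIS2 had 2415 untreated, 1412 at day 3 and 1272 in spheres, while MEIS1 had 387, 411 and 317 and PBX3 had 1762, 1626 and 2351. TGIF1, a TALE protein that also represses TGF-beta targets, had 5992 untreated, 8054 at day 3 and 7819 in spheres.

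Chromatin regulators of the HOX clusters differed in single genes. Of 28 Polycomb genes 1 (3.57%) passed 2-fold upwards and 0 downwards in spheres against untreated cells, where 4.90% and 5.00% of all genes did. Their median was -0.12. The 1 was JARID2, a subunit of the complex that methylates histone H3 at lysine 27, with 2846 untreated, 4729 at day 3 and 7851 in spheres, 2.76-fold higher. EZH2, the enzyme of that complex, had 3415, 3117 and 2204, a difference of -0.63. BMI1, of the other Polycomb complex, had 2680.3, 1438 and 2606, and was 1.86-fold lower at day 3 than untreated. Of 15 Trithorax and demethylase genes 2 (13.3%) were at least 2-fold lower in spheres than untreated and 0 higher, with a median of -0.04. Of all genes 5.00% were lower and 4.90% higher. SETD1A, a methyltransferase of lysine 4, had 1274 untreated, 1422 at day 3 and 405 in spheres, 3.15-fold lower than untreated. MLLT1, an elongation factor subunit, was 2.17-fold lower and KMT2B 1.92-fold lower. KMT2A, the classic activator of HOX genes, was 1.43-fold lower at 3918 against 5592 in untreated cells. Of the 15 genes 8 were below untreated cells in spheres and 7 above. Among those above, ASH2L had 3315 untreated, 2226 at day 3 and 4567 in spheres, 2.05-fold higher in spheres than at day 3.

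Retinoic acid is an inducer of HOX genes, and several of its handling genes were past 2-fold in both directions. Of 21 genes in this list, which also holds CDX and GDF11, 4 (19.0%) passed 2-fold upwards and 3 (14.3%) downwards in spheres against untreated cells. Of all named genes 4.90% and 5.00% did. CRABP2, which carries retinoic acid to its receptor, had 2526 untreated, 2918 at day 3 and 438 in spheres, 5.77-fold lower. CRABP1, its relative in the cytoplasm, had 1225, 2015 and 4121, 3.36-fold higher. RARG, a retinoic acid receptor gene, had 997, 641 and 364, 2.74-fold lower, and RARA had 3165, 3444 and 1738, 1.82-fold lower. The receptor gene RARB and the breakdown enzyme gene CYP26B1 were in the lowest quartile on all arrays. CDX2, a homeobox gene that activates HOX genes in the embryo, had 990.3, 1354 and 1769, and was 1.79-fold higher in spheres.

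**Figure D4:**
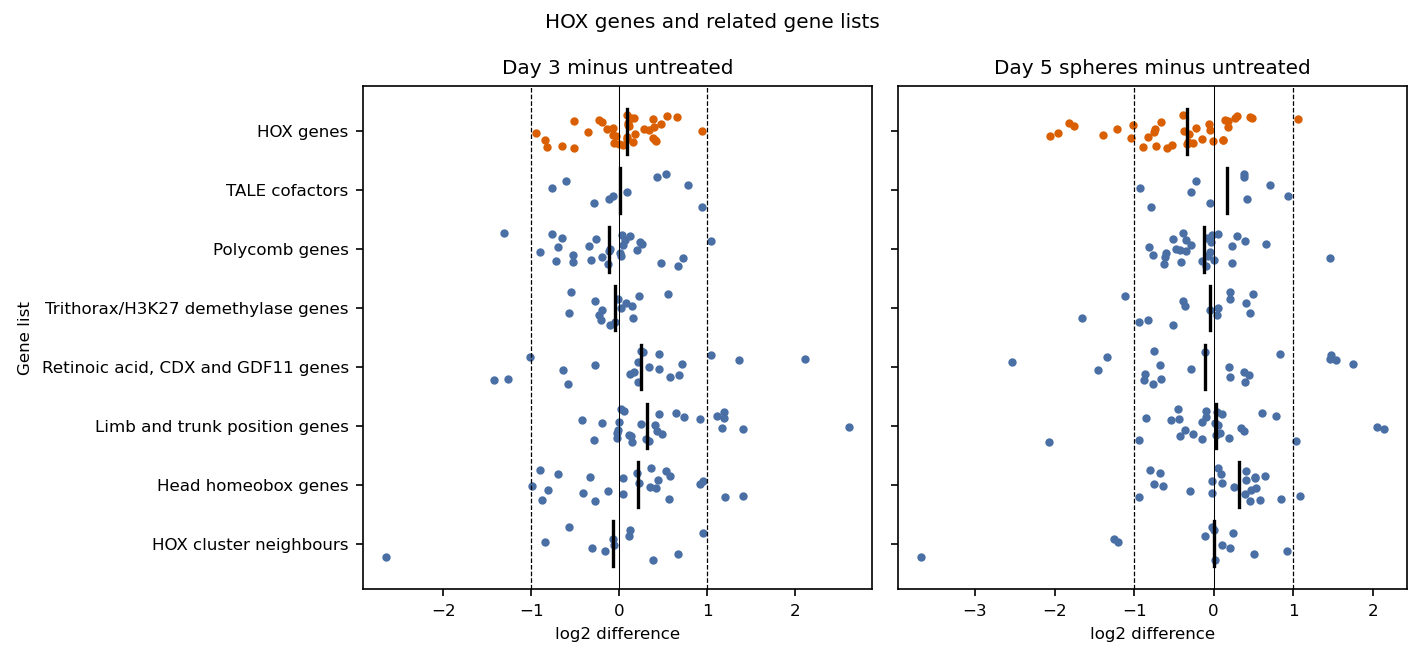
Log2 difference of every measured gene of the HOX family and of 7 related lists, for day 3 minus untreated and day 5 spheres minus untreated. Points are genes, black bars the median of a list and dashed lines 2-fold. The HOX median is 0.09 at day 3 and -0.33 in spheres, while those of the other lists lie between -0.12 and 0.32 in both.

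Of 28 genes of limb and trunk position 3 (10.7%) passed 2-fold upwards and 1 (3.57%) downwards in spheres against untreated cells, where 4.90% and 5.00% of all genes did, with a median of 0.03. At day 3, 6 (21.4%) were at least 2-fold higher, where 5.77% of all genes were, and 0 were lower. The median of 0.32 at day 3 was 0.12 among its 14 genes at the level of the median gene or above and 0.13 with the offset of 64. TBX2, a repressor with a role in limb and heart, had 1717 untreated, 1899.8 at day 3 and 409 in spheres, a log2 difference of -2.07 from untreated cells. PRRX1, a homeobox gene of limb mesenchyme, had 1867, 4951 and 8206, a difference of 2.14 in spheres. PITX1, the hindlimb identity gene, had 1616, 1783 and 1212, a difference of -0.42, while the forelimb gene TBX5 was between 8.53 and 11.6 on all arrays and its hindlimb relative TBX4 had 129.3, 106 and 67.5. TWIST1 had 12408, 12382 and 11156. SALL4 was highest at day 3, with 342, 779.5 and 190.1, and 4.10-fold lower in spheres than at day 3. Of 24 homeobox genes of the head 1 (4.17%) was at least 2-fold higher in spheres than untreated, where 4.90% of all genes were. Of the 24, 0 were lower, where 5.00% of all genes were, and their median was 0.32. DLX5, which also acts in bone formation, was the 1, with 486 untreated, 1287 at day 3 and 1029.7 in spheres, and MSX1 had 6189, 4646 and 6113.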

How the data were processed

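Per the submitters' processing notes RMA produced the values the authors deposited, 1 linear intensity for each of 45033 probe sets on each array. RMA makes the arrays' distributions alike, which can hide a shift of most genes. Software version, scanner, build and detection calls were not used here. Intensities were put on a log2 scale with no offset and averaged over a gene's probe sets. The platform's gene table named 18188 probe sets and accessions 678 (29 and 8 of the HOX members); 26167 stayed unnamed. Symbols follow RefSeq's gene table of GRCh38.p14. A difference is the first named array minus the second, called at 2-fold. Members and lists were chosen with earlier results of these data known. All members were to be named and, from each of 7 other lists, up to 6 genes with the largest difference plus a set of genes always named, of which EVX2, KDM6B, HOTAIR and HOTTIP were not analysed here. The comparison with flanking genes was chosen after seeing the data. Some further genes of the family and of the lists are not reported here. The calculation was tested on simulated data. Python 3.11.15, pandas 2.3.3 and numpy 2.4.6 were used. Precision is limited by 1 array per group.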

Additional observations from a re-analysis of the deposited data

How the results depend on the processing

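Of 75 recomputed counts and medians of the HOX members under 9 alternatives 14 counts moved by over 1.5 times or to or from 0, and 0 reversed. The medians moved by less than 0.15, the median spread between probe sets of a gene. Smaller moves in spheres were 8 lower against untreated cells becoming 7 under median centring, quantile normalization and the offset, and 9 lower against day 3 becoming 8 with quantile normalization, 7 with the offset and 11 at 1.5-fold. At 1.5-fold, 2 members were higher and 4 lower at day 3 against untreated cells, 15 were lower in spheres against untreated cells, and 3 were higher in spheres against day 3. At 3-fold, 4 were lower and 0 higher in spheres against untreated cells, and 3 were lower against day 3. Among the 16 members whose mean level reached the median gene, 4 were lower and 0 higher in spheres against untreated cells, and 5 were lower against day 3. Among the 3 that reached the upper quartile, 1 was lower and 0 higher in spheres against untreated cells, and 1 was lower against day 3. With 64 added to each intensity 0 were higher in spheres against untreated cells, and HOXC11 and HOXD8 were no longer past 2-fold there, nor HOXB8 and HOXC11 against day 3. Median centring and quantile normalization took HOXC11 under 2-fold against untreated cells, and quantile normalization took HOXB8 under it against day 3. The brightest probe set and the median over probe sets changed nothing for the members, which have 1 probe set each. The median of the head homeobox list, 0.32 in spheres against untreated cells, was -0.02 among its 3 members at the upper quartile. No paired analysis was possible because each group is 1 array. Limits at low signal, the lack of detection calls and 1 array per group apply to every value.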
